A study of Homo sapiens with 2 samples.

Results

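The genes of the cytosolic ribosomal proteins were examined in A549, a human lung adenocarcinoma line, through the rows of 2 deposited tables whose gene symbol begins with RPL, RPS or RPLP followed by a number, with an optional paralog ending. Each skipped exon event pairs an exon inside a gene with the exons to its left and right, between which it may be spliced out. The rule selected 216 of the 35827 events listed (0.603%). These events cover 182 distinct exons in 68 genes, out of 31197 distinct exons in 9939 genes. In the table of transcript expression the rule selected 2 of 993 transcripts, 1 of RPS19 and 1 of RPS24. The control library came from cells that received DMSO (the sample labels give no treatment), and the other library from cells that received 7.22 nM paclitaxel, a drug that stabilizes microtubules, both for 72 h. Each condition has 1 library, so there is no replicate check, no spread and no test between conditions. The total reads of either library are unknown from these tables.

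Each ribosome is built from a small and a large subunit, in which ribosomal proteins hold folded ribosomal RNA. The proteins of the small subunit carry names in RPS and those of the large subunit names in RPL, and RPLP0, RPLP1 and RPLP2 form the stalk that recruits translation factors. Their genes are short, strongly expressed and made of small exons, and many carry small nucleolar RNAs (snoRNAs) in their introns, which guide the chemical modification of ribosomal RNA. Several ribosomal proteins are known to limit their own amount by unproductive splicing, in which an altered exon brings an early stop codon and the RNA is degraded by nonsense-mediated decay.

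The skipped exon table was read for the place, length and annotation of its exons. Its reads and inclusion levels are given per library under the names sample 1 and sample 2, which nothing in the sources used here ties to control or paclitaxel, so these values were not used. An exon listed there is an event put up for measurement, and its listing alone does not show that the exon was skipped in these cells. Positions are those of the human build hg38, 1-based. Of the 31197 distinct exons, 98.3% lie between AG and GT in hg38, the bases that border most human exons, and 0.946% have no exon with the same ends in their gene in GENCODE 44. All 182 ribosomal protein exons have such a match, and 180 of them (98.9%) lie between AG and GT.

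The sequences shown first, read from hg38, are those of the exons that the account below returns to. The first is the exon of 81 nucleotides that sets the RPS19 transcript of the expression table apart from the reference transcript. It lies on the plus strand at chr19:41861480-41861560, and capitals mark the 2 intronic bases on either side.
RPS19, exon of 81 nucleotides: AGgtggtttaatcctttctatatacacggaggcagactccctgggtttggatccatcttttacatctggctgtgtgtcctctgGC

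The next sequences are longer forms of exons that also occur in a shorter, standard form. They are shown because the added bases, in capitals, bring an early stop codon in RPS25 and none in RPS3. RPS25 lies on the minus strand at chr11:119017925-119018053 and RPS3 on the plus strand at chr11:75402304-75402446.
RPS25, exon of 129 nucleotides: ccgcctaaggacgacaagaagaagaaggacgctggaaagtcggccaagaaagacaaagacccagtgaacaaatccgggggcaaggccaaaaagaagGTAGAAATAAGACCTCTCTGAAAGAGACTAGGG
RPS3, exon of 143 nucleotides: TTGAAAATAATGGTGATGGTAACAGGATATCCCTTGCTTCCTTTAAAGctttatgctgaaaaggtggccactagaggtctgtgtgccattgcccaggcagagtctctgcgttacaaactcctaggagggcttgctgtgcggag

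The last pair shows the shortest exons listed in these genes, which a read of 150 bases spans whole. That of RPL23A lies at chr17:28720414-28720430 and that of RPL41 at chr12:56117189-56117211, both on the plus strand, and no base is in capitals.
RPL23A, exon of 17 nucleotides: cgtggttttgcgatggg
RPL41, exon of 23 nucleotides: tggaggaagaagcgaatgcgcag

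RPS19 and RPS24, a pair of small subunit proteins, had transcripts in the expression table, and the transcripts went in opposite directions. The question was whether ribosomal protein transcripts differed between paclitaxel and control. The authors' table holds only transcripts that passed their own test, and all of them differ at least 2-fold, so the other ribosomal protein genes have no expression value here. Of the 84 genes in GENCODE 44 that fit the rule, 2 have a value. Over all 19061 genes with a MANE Select transcript, the reference transcript of a protein-coding gene, 799 (4.19%) have one. Values are FPKM, fragments scaled by transcript length and by mapped fragments, and each value is that of 1 transcript and not of the gene.

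The RPS19 transcript ENST00000601492 had 47.3 FPKM in the control library and 253.7 FPKM in the paclitaxel library. The paclitaxel library was thus 5.37-fold higher, a difference of 2.40 on the log2(FPKM + 1) scale. By level it ranked 111th of the 993 transcripts in the control library and 6th in the paclitaxel library. FPKM is scaled by length, and only 342 nucleotides of this transcript are annotated. The part of that short length in its level and rank was not tested. RPS19 is a small subunit protein needed to mature the small subunit's RNA, and mutations in it cause Diamond-Blackfan anemia.

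The RPS24 transcript ENST00000613865 had 28.6 FPKM in the control library and 3.32 FPKM in the paclitaxel library. It was 8.61-fold higher in the control library, and the difference, paclitaxel minus control, was -2.78 on the log2(FPKM + 1) scale. RPS24 is likewise a small subunit protein that acts in ribosome assembly and is mutated in some patients with Diamond-Blackfan anemia. Of all 993 transcripts in the table, 458 (46.1%) were at least 2-fold higher and 535 (53.9%) at least 2-fold lower with paclitaxel. Every transcript of the table thus differs at least 2-fold, so that both members do was set by the table. With 1 member in each direction, nothing can be read against that division.

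**Figure D1:**
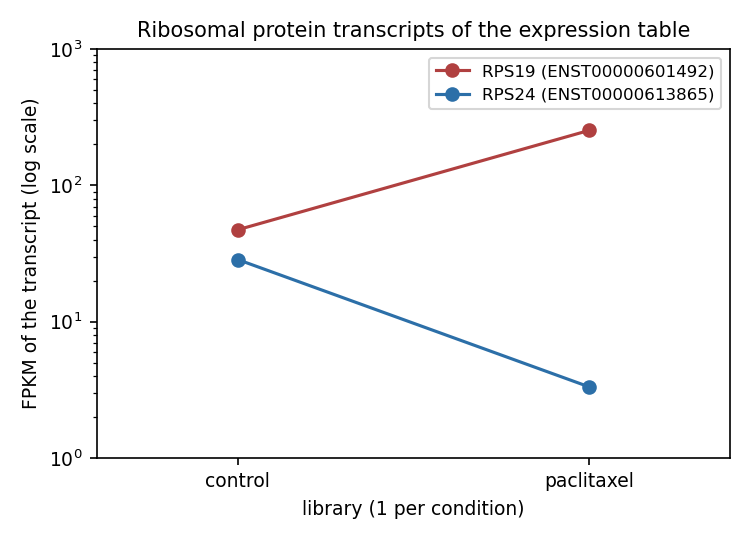
FPKM (y axis, log scale) of the RPS19 and RPS24 transcripts in the control and the paclitaxel library (x axis), 1 library per condition and hence no error bars. The RPS19 transcript goes from 47.3 to 253.7 FPKM and the RPS24 transcript from 28.6 to 3.32 FPKM.

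Neither transcript is the reference form of its gene. RPS19 has 8 transcripts in GENCODE 44, and MANE Select, the transcript chosen as its reference, has 6 exons and 2021 nucleotides. ENST00000601492 has 5 exons and 342 nucleotides, from chr19:41860255 to 41869084. It shares the first 3 exons with MANE Select, then carries the exon of 81 nucleotides printed above, and stops after 54 nucleotides of MANE Select exon 4, with the end of its coding sequence not annotated. The exon of 81 nucleotides is in 1 of the 8 transcripts, is wholly coding there, has a length that is a multiple of 3 and holds no stop codon when read on from exon 3.

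The same exon of 81 nucleotides is among the 5 distinct RPS19 exons listed as skipped exon events, so both tables hold it. The other 4 are MANE Select exons 4 (184 nucleotides) and 5 (55 nucleotides) and a pair of exons of 115 and 726 nucleotides, each in 1 transcript annotated as a target of nonsense-mediated decay. Of the 182 ribosomal protein exons, 2 are followed by GC in place of GT, which is a rarer splice site, and this RPS19 exon is 1 of them. The other is exon 3 of RPS27A (55 nucleotides), the gene of a fusion of ubiquitin with a small subunit protein, which is named because of this base and was picked after its value was seen. Among all distinct exons, 1.56% lie between AG and GC.

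RPS24 has 18 transcripts in GENCODE 44. MANE Select has 6 exons and a coding length of 390 nucleotides, stop codon left out. ENST00000613865 has 5 exons and a coding length of 399 nucleotides. It leaves out MANE Select exon 5, an exon of 22 nucleotides at chr10:78040204-78040225, so that 9 bases of the last exon become coding. Its first exon begins 103 bases before that of MANE Select. The exon of 22 nucleotides is not among the events listed for RPS24. Those are exon 2 (66 nucleotides, coding) and an exon of 245 nucleotides at chr10:78048981-78049225 that is in 1 of the 18 transcripts, which is annotated as a decay target.

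**Figure D2:**
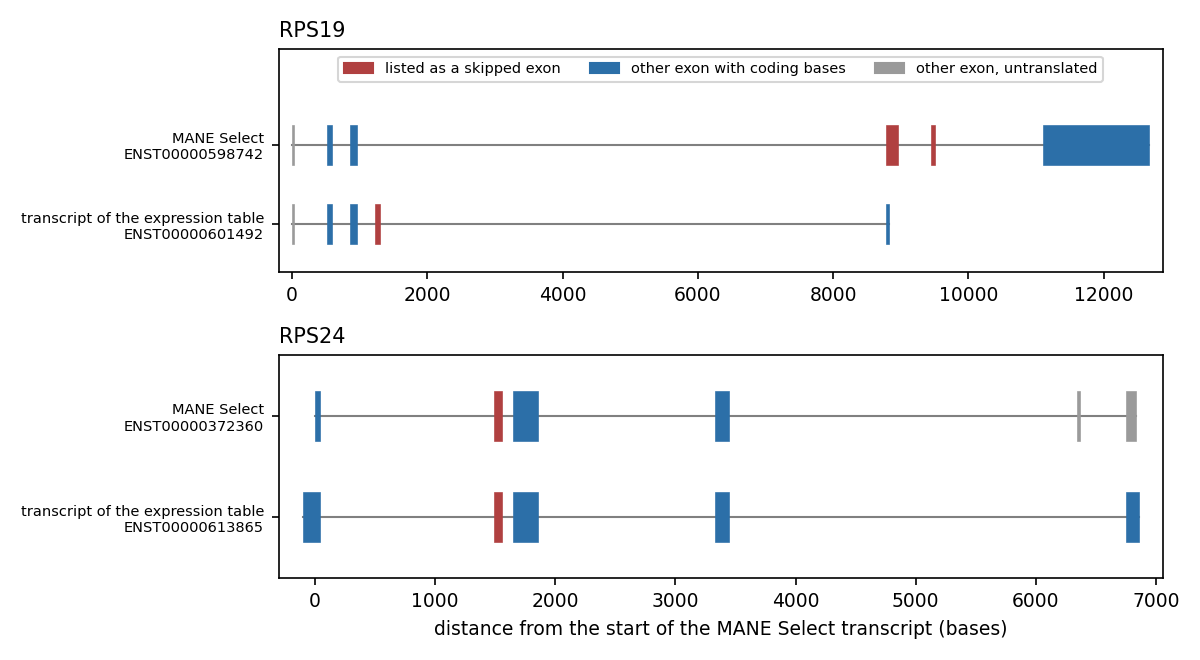
Exons of RPS19 and RPS24 drawn to scale as boxes, with the distance in bases from the start of the MANE Select transcript on the x axis, for the MANE Select transcript and the transcript of the expression table. Red boxes are exons with the same ends as a listed skipped exon, blue boxes other exons with coding bases and grey boxes exons with none. The RPS19 transcript has a listed exon of 81 bases that MANE Select lacks, and the RPS24 transcript lacks the MANE Select exon of 22 bases.

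Both measurements rest on how reads were divided among overlapping transcripts. GENCODE 44 annotates 4 pseudogenes named after RPS19 and 14 named after RPS24, which could take or give reads where the sequences match. How alike these sequences are was not measured, and the part of the pseudogenes in these values was not tested.

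Other genes of the translation machinery were looked up in both tables. Of 7 elongation factor genes 1 was in the table, EEF1D, whose transcript ENST00000531218 had 35.4 FPKM in the control library and was listed at 0 in the paclitaxel library. None of 29 initiation factor genes and none of 16 nucleolar genes of ribosome assembly was there. Over all 19061 genes with a MANE Select transcript, the reference transcript of a protein-coding gene, 4.19% have a value in that table. Among the skipped exon events, 6 of the 7 elongation factor genes, 28 of the 29 initiation factor genes and 13 of the 16 nucleolar genes had at least 1 event, with 33, 138 and 47 distinct exons, against 48.4% of the genes with a MANE Select transcript. These gene groups were not matched to all genes for expression level or number of exons.

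The events were spread over both subunits. GENCODE 44, the reference annotation, has 84 genes that fit the rule, and 68 of them had an event. Over all 19061 genes with a MANE Select transcript, 9217 (48.4%) had one. The genes compared were not matched for expression level or number of exons, and the part of either in this gap was not tested. Of 31 small subunit genes 27 had an event, with 80 distinct exons in 99 events, and of 53 large subunit genes 41 had an event, with 102 distinct exons in 117 events. The 16 genes with no event listed were RPL6, RPL7, RPL10L, RPL19, RPL22L1, RPL31, RPL34, RPL36A, RPL36AL, RPL38, RPL39, RPL3L, RPS21, RPS23, RPS27 and RPS29. Of these, RPL10L and RPL36AL, which also count among the 9 paralog genes below, have 1 annotated transcript each, with no internal exon. No skipped exon event is possible for them on this annotation. The list of 9 genes with a paralog ending in their names holds genes for variants of a standard ribosomal protein and RPS4X, the X-linked gene of a standard one, and 5 of the 9 had an event. These were RPL7L1 with 4 distinct exons and RPL26L1, RPL39L, RPS4X and RPS27L with 1 each. RPS27L is a known target of p53.

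The number of distinct exons per gene with an event ranged from 1 to 8, with a median of 2, which is also the median over all 9939 genes. A single exon was listed in 20 genes and 2 exons in 21 genes. RPLP0, the base of the ribosomal stalk, had the most, with 8 distinct exons in 11 events, followed by RPS2, a protein at the entry of the mRNA channel, with 7 exons in 10 events. RPS3, RPL4, RPS15A and RPS3A had 6 exons each, and RPS16, RPL13A, RPS18, RPS19 and RPL26 had 5 each. The other stalk genes, RPLP1 and RPLP2, had 3 and 2 exons.

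**Figure D3:**
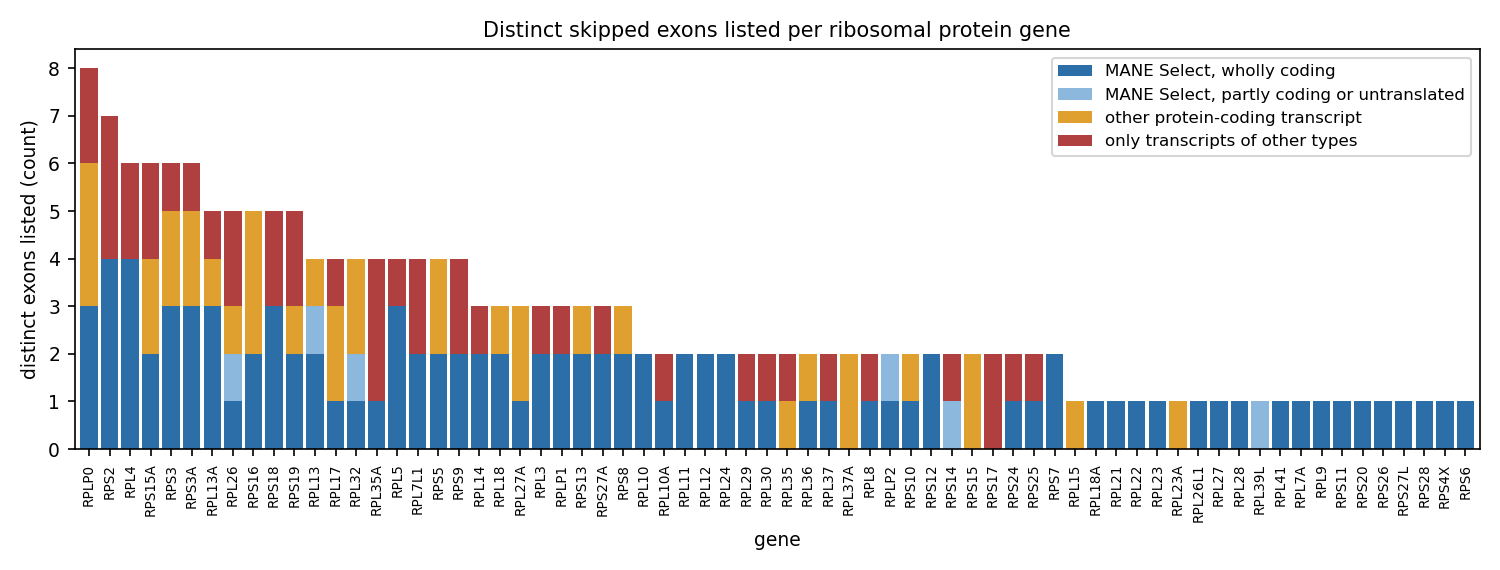
Number of distinct exons listed as skipped exon events (y axis) for each of the 68 ribosomal protein genes with an event (x axis), with colours for what GENCODE 44 says of each exon. RPLP0 leads with 8 exons, 20 genes have 1 exon, and most genes with a single exon show only the colour of wholly coding MANE Select exons.

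The 68 genes have 243 internal exons in MANE Select, of which 104 (42.8%, exact 95% interval 36.5% to 49.3%) were listed, against 20.7% of the 103508 internal exons over all genes with an event. Only genes with at least 1 event enter both shares. The ribosomal protein genes among them have 3.57 internal MANE Select exons on average, against 11.2 over all genes, so 1 listed exon weighs more in their share and nothing is read from the gap. All intervals given here are exact binomial intervals that cover counting only, and exons of 1 gene are not independent. In RPL26, RPL32, RPL39L, RPL41 and RPLP1 every internal MANE Select exon was listed, which are genes with 1 or 2 such exons. RPL3, a large subunit protein next to the peptidyl transferase center, had 2 of 8 listed and RPS24 had 1 of 4.

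More of the exons were standard coding exons than were of any other class. Of the 182 exons, 98 (53.8%, interval 46.3% to 61.2%) are wholly coding exons of MANE Select, against 63.0% of all distinct exons. Another 5 are partly coding in MANE Select and 1, exon 2 of RPL39L, is untranslated. A further 36 (19.8%, interval 14.3% to 26.3%) are outside MANE Select but in another protein-coding transcript, against 14.7% over all genes, which lies inside that interval. The last 42 (23.1%, interval 17.2% to 29.9%) are found only in transcripts of other types, against 15.8% over all genes. Of these 42, 23 are in a transcript annotated as a target of nonsense-mediated decay, 10 only in transcripts annotated as retaining an intron, and 9 in other or mixed types.

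Many of the listed exons are variants of one another. Of the 182 exons, 89 (48.9%, interval 41.4% to 56.4%) share exactly 1 end with another listed exon of their gene, so that the list holds a different boundary at the other end. Over all genes the share is 16.3%. In RPS15A, a small subunit protein, 3 of the 6 exons share the boundary at 18788063 on chromosome 16 and have 43, 80 and 97 nucleotides, of which the exon of 80 nucleotides is the standard one. RPS3A has 3 exons that share the boundary at 151100975 on chromosome 4, with 38, 111 and 188 nucleotides, the longest of which is the standard exon 3. In RPLP0, 3 exons of 78, 186 and 217 nucleotides share the boundary at 120198554 on chromosome 12.

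An early stop codon lay in most of the alternative exons whose frame could be read. For 67 of the 78 such exons, at least 1 event has a flanking exon before it that ends where a coding MANE Select exon ends. The MANE Select frame at that end was taken as the reading frame for that event, also where the flanking exon begins elsewhere. Where events of 1 exon differ, a stop codon in any of these frames was counted. In 45 of these 67 (67.2%, interval 54.6% to 78.2%) a stop codon lies in frame within the exon, against 60.3% of 5911 such exons over all genes. The interval of the ribosomal protein exons includes that value. The same count over wholly coding MANE Select exons found a stop codon in 7 of 97 (7.22%), against 6.74% over all genes.

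RPS25, a small subunit protein that viral internal ribosome entry sites depend on, gives an example. Its standard exon 2 has 96 nucleotides, and the longer form of 129 nucleotides adds 33 bases at the 3′ end, the capitals in the sequence above. The first stop codon in frame begins at base 115 of the longer exon. It is in 1 of 6 transcripts, a decay target.

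RPL3 has a standard exon 4 of 136 nucleotides and a longer form of 316 nucleotides at chr22:39316706-39317021. The longer form holds a stop codon in frame and is in 2 of 18 transcripts, none of them typed as protein coding. RPL10A, the large subunit protein that forms the L1 stalk, has a standard exon 3 of 81 nucleotides and a form of 339 nucleotides with a stop codon in frame. RPS3, a small subunit protein that also takes part in DNA repair, has listed forms with and without such a stop codon. Its exon 4 of 95 nucleotides has a longer form of 143 nucleotides and a shorter one of 28 nucleotides. Neither of these holds a stop codon in the frame of the exon before it. Only the listed exon was searched, so a stop codon that a changed frame may bring in a later exon was not looked for. Both forms of exon 4 are annotated as coding. A shorter form of RPS3 exon 5, of 154 nucleotides at chr11:75404054-75404207, does hold a stop codon in frame. It is in 1 of 20 transcripts, a decay target.

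Leaving out a coding exon shifts the reading frame unless its length is a multiple of 3, and lengths were counted here for all exons, coding or not. Over all 182 exons, 62 (34.1%, interval 27.2% to 41.4%) have a length that is a multiple of 3, against 41.1% over all distinct exons. Among the 98 wholly coding MANE Select exons the share is 41.8% (interval 31.9% to 52.2%), against 8642 of 19660 such exons over all genes, which lies inside that interval. Among the 78 exons outside MANE Select it is 26.9% (interval 17.5% to 38.2%), against 36.7%. Leaving out exon 3 of RPL22 (125 nucleotides), the 1 exon listed for this RNA-binding large subunit protein, would shift the frame, as would leaving out exon 2 of RPS27L (109 nucleotides). Exon 8 of RPL3 (96 nucleotides) and exon 2 of RPS24 (66 nucleotides) could be left out without a shift.

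The median length was 110.5 nucleotides, against 121 nucleotides over all distinct exons, with a range from 17 to 1641 nucleotides. The wholly coding MANE Select exons had a median of 106.5 nucleotides and the exons found only in transcripts of other types a median of 170.5 nucleotides. The longest was an exon of RPLP1 (1641 nucleotides) that spans standard exons 2 and 3 and the intron between them. Exons of at most 27 nucleotides numbered 2, those of RPL23A and RPL41 printed above, or 1.10% against 0.766% over all genes. RPL41 encodes the smallest ribosomal protein and RPL23A a protein at the exit of the peptide tunnel, and both were named here after their lengths were seen.

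**Figure D4:**
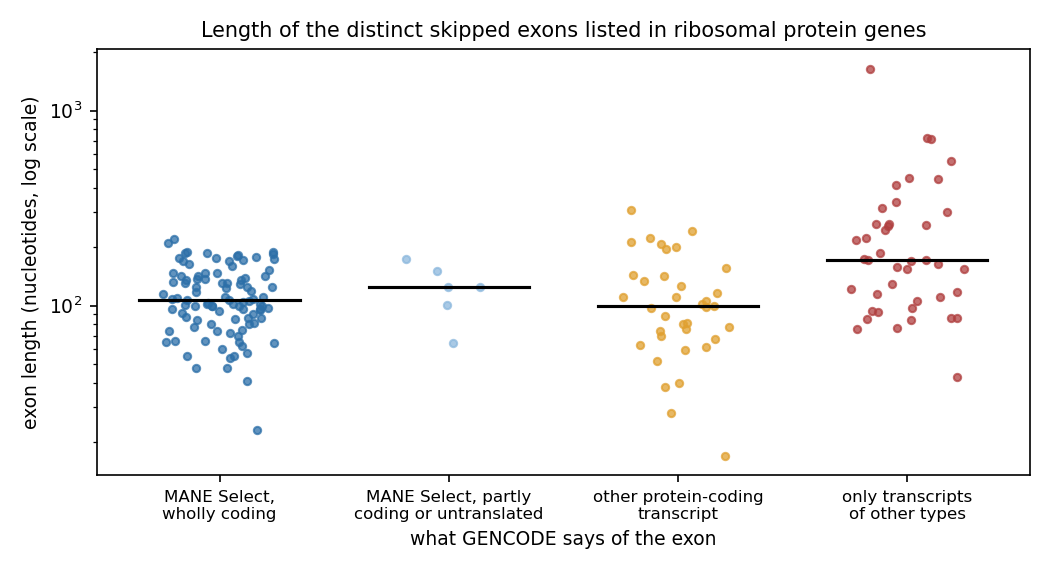
Length in nucleotides (y axis, log scale) of each of the 182 distinct ribosomal protein exons, grouped along the x axis by what GENCODE 44 says of the exon, with black lines at the group medians. The medians are 106.5, 124, 99 and 170.5 nucleotides from left to right, and the exons above 308 nucleotides all lie in the group of transcripts of other types.

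SnoRNA genes lay beside many of the exons. For 58 of the 182 exons (31.9%, interval 25.2% to 39.2%), the stretch between the flanking exons of at least 1 event contains an annotated snoRNA gene on the same strand, against 0.933% of all distinct exons. These were 41 snoRNA genes in 23 ribosomal protein genes. RPL4, a large subunit protein that lines the peptide tunnel, had 5 annotated snoRNA genes within a single event. RPL13A, a large subunit protein with a known role in silencing inflammatory mRNAs, hosts SNORD32A, SNORD33, SNORD34 and SNORD35A, RPS2 hosts SNORA10 and SNORA64, and RPS3 hosts SNORD15A and SNORD15B. SnoRNA genes of this kind are cut from introns after splicing, so they share a primary transcript with the exons described here.

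The skipping form of these events was less often annotated than the inclusion form. The junction that joins both flanking exons directly is an intron of the same gene in GENCODE 44 for 87 of the 216 events (40.3%, interval 33.7% to 47.1%), against 48.2% of all events. Both junctions of the inclusion form are annotated for 190 events (88.0%), against 88.2%. Of the 7 events of RPS19, 2 have an annotated skipping junction, and the event of the 81-nucleotide exon is 1 of them. Neither event of RPS25 has one, and of the 2 events of RPS24 the exon of 245 nucleotides has one.

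The size of the flanking exons enters the scaling of the inclusion levels in the authors' table. For each event the table gives an effective length of the inclusion form and of the skipping form, by which reads are divided. In all 35827 events the length of the skipping form equals the number of positions at which a read of 150 bases covers the junction with at least 8 bases on each side and stays within both flanking exons, set to 1 where there is none. A skipping read that reaches beyond a short flanking exon is therefore outside this length. The shorter flanking exon had a median of 96 nucleotides in the ribosomal protein events, against 107 nucleotides over all events, and the median length of the skipping form was 85, against 97.

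In 9 of the 216 events (4.17%, against 3.46% of all events) the skipping form had fewer than 20 positions. The event of the 81-nucleotide exon of RPS19 has 33 positions for the inclusion form and 6 for the skipping form, since its flanking exons have 101 and 54 nucleotides. A second RPS19 event, of exon 4, has 177 and 7 positions, whereas the same exon with a long last exon at its 3′ side has 264 and 94. A pair of RPL13A events have 3 positions for the skipping form. An RPS10 event has 1 position, and an RPS27A event has the highest ratio among these genes, 434 positions against 5, or 86.8. In RPS25 the form of 129 nucleotides has 151 and 42 positions and the form of 96 nucleotides 178 and 135. RPS10 and RPS27A were named here after their values were seen.

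**Figure D5:**
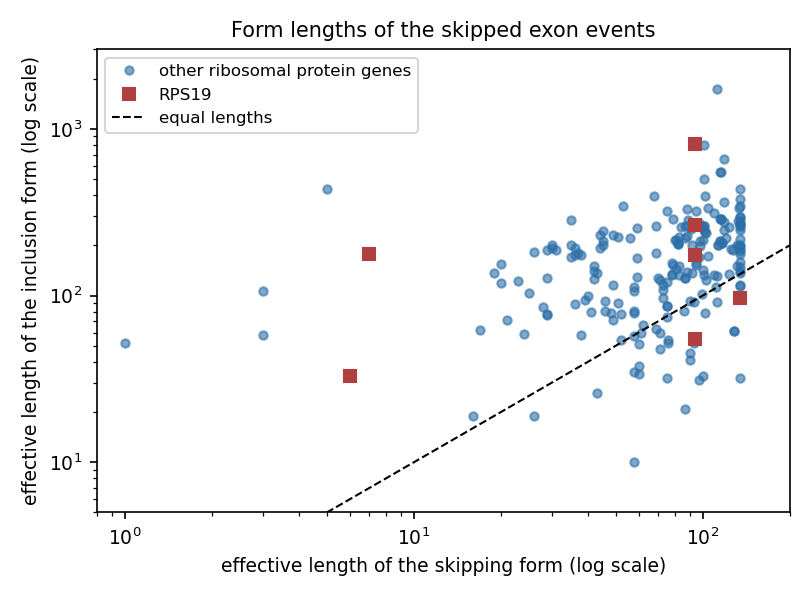
Effective length of the inclusion form (y axis) against that of the skipping form (x axis), both in positions on log scales, for the 216 ribosomal protein events, with RPS19 events as red squares and a dashed line at equal lengths. A few events, 2 of RPS19 among them, lie far to the left with fewer than 10 positions for the skipping form, and no event exceeds 135.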

How the data were processed

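RNA from 1 control and 1 paclitaxel library was sequenced as paired reads of 150 bases. The paper's methods name MapSplice with hg38, Cufflinks and MISO. CASAVA 1.8.2 and TopHat appear, beside Cufflinks, in the submitters' processing notes. FPKM values were made by the authors and deposited per transcript, only for transcripts past their q-value threshold, and all of these differ at least 2-fold. The paper's own cut for changed genes includes a 2-fold change. The column with T in its name was taken as the paclitaxel library, since the series has 1 treated sample. The layout of the skipped exon table is that of MATS, version not given in the sources used here. Its effective lengths of both forms were deposited per event and used as they stand. Its 6 per-library columns name no sample of the series and were not used. The columns of fold changes, inclusion differences, p-values, q-values and FDR hold the authors' own comparisons and were not used.

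Exons were matched by exact ends to GENCODE 44, and hg38 was read with pysam 0.24.0 under Python 3.11.15. Exact intervals at 95% came from scipy 1.17.1. The junction count, exon classes and stop search were tested on simulated data. A pseudocount of 1 was added to FPKM (alternative 0.1, and a minimum of 1 FPKM). Genes named are those with an expression value, the genes with the most distinct exons (ties kept), stalk genes, paralogs and 8 genes of interest. RPL23A, RPL32, RPL41, RPS10 and RPS27A were named after their values were seen. Members and lists were chosen with earlier results of these data known. The sequence of 1 further exon is not reported here.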

Additional observations from a re-analysis of the deposited data

How the results depend on the processing

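With 1 library per condition, no test was made, and depth is unknown. The share of the table taken up by ribosomal protein events, 0.603%, was 0.583% over distinct exons, 0.684% over genes and 0.581% without the paralog endings of the gene names. The share of exons with a length that is a multiple of 3 was 34.3% over events, and that of wholly coding MANE Select exons 58.3%, both within the intervals given for distinct exons. Both transcripts had at least 1 FPKM in each library. With a pseudocount of 0.1 the difference was 2.42 for RPS19 and -3.07 for RPS24. The alternatives set for inclusion levels were not run, because the columns with reads could not be tied to a sample. No paired analysis was possible because each condition has 1 library.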
